A study of Homo sapiens with 12 samples.

Results

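Oxidative phosphorylation mRNAs are described here by their levels in RNA immunoprecipitations (IP) from U373-MG cells, a human glioblastoma line. The group was set by a list of 41 Ensembl gene IDs for nuclear genes that encode subunits of respiratory complexes I to IV and of ATP synthase (complex V), out of 31707 genes listed in the deposited tables. The list holds 10 COX genes, 8 UQCR genes, 13 ATP5 genes, 4 SDH genes and 6 NDUF genes. Of the 41 members, 39 were listed in both tables, and COX8A and ATP5PO were not analysed here. Symbols came with the list, and RefSeq held 40 of them as current symbols and NDUFA4 as an older symbol of COXFA4. The 12 libraries form 3 groups of 4: IP labelled ADAR3, IP labelled pre-immune, and input RNA. All come from this 1 line, cultured alike, with crosslinking by ultraviolet light before sonication, and the labels name no treatment, knockout or transgene in any group. ADAR3 belongs to the adenosine deaminases that act on double-stranded RNA, binds such RNA and has no known editing activity. Pre-immune serum is taken before an animal is immunised.

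The labels do not say whether replicates are separate cultures; each p-value therefore reflects only how these libraries vary, which may be technical. Gene-assigned reads numbered 23999234 to 30156884 per library in ADAR3 IP, 1875461 to 4946149 in pre-immune IP and 4873428 to 12772412 in input. Levels are given as CPM, in which a gene's reads are scaled to the same total for every library. CPM depends on the length of an mRNA, so levels are compared between groups and never between genes. A lower CPM in an IP means a smaller share of the RNA recovered, and the amount recovered per cell is not known. The tables name genes by ID alone, so the glial markers and the other genes of the pathway were not analysed here.

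Mitochondria make most ATP by oxidative phosphorylation. Complexes I and II feed electrons from NADH and succinate into the respiratory chain, complexes III and IV pass them on to oxygen, and ATP synthase uses the resulting proton gradient to make ATP. A few core subunits are encoded in the mitochondrial genome. All the others, including the members described here, are transcribed in the nucleus, translated in the cytosol or at the mitochondrial surface and imported. Many of these mRNAs are abundant, encode small proteins and have pseudogenes: RefSeq names 124 for 29 of the 41 members, and reads of members and copies may have been divided between them.

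Oxidative phosphorylation mRNAs formed a smaller share of ADAR3 IP than of pre-immune IP or of input. The 39 listed members together took 0.141%, 0.123%, 0.141% and 0.158% of reads in the ADAR3 IP libraries. They took 0.225%, 0.215%, 0.222% and 0.193% in the pre-immune libraries, and 0.392%, 0.437%, 0.413% and 0.436% in input. The 3 groups did not overlap. The mean share was 0.141% ± 0.0142 with ADAR3 IP, 0.214% ± 0.0143 with pre-immune IP and 0.420% ± 0.0213 for input (SD, n = 4 each), so that ADAR3 IP stood at 33.5% and pre-immune IP at 50.9% of the input share. These shares depend on what else a library holds. With the 10 most abundant genes of each library left out of the total, ADAR3 IP stood at 34.3% and pre-immune IP at 57.8% of the input share.

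**Figure D1:**
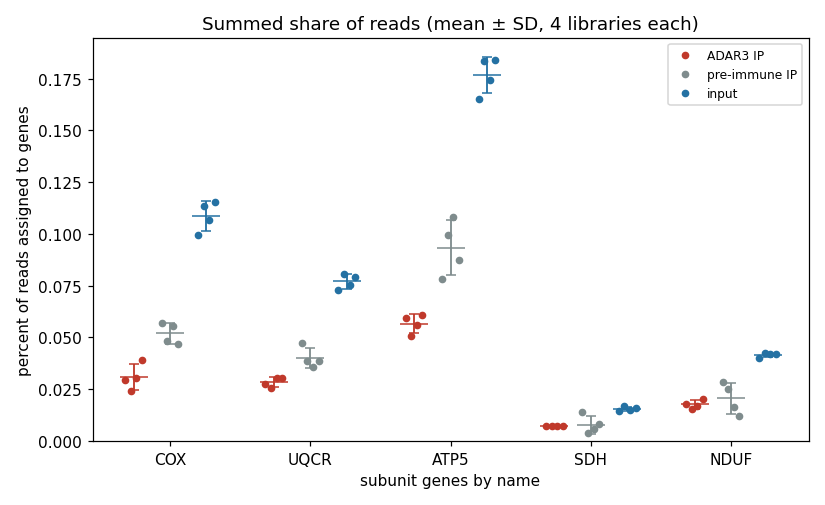
Summed percent of reads (vertical axis) taken by the members named COX, UQCR, ATP5, SDH and NDUF (horizontal axis), with 1 point per library, a bar at the mean and whiskers of 1 SD (n = 4 libraries per group). In all 5 sets both IPs lie below input, and ADAR3 IP lies below pre-immune IP without overlap for COX, UQCR and ATP5, while the IPs overlap for SDH and NDUF.

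Each member was tested with limma on log2(CPM + 0.5), in a fit over all genes with a mean of at least 10 CPM in the libraries compared, and called at a Benjamini-Hochberg adjusted p under 0.05. Fold changes are on this scale, which understates the change of low genes. Of the 35 members tested, 34 were lower in ADAR3 IP than in input and 0 higher, and 1, SDHC, was not called. Among all 9849 genes tested, 38.0% were lower and 33.0% higher, 71.0% in all. At an unadjusted p under 0.05, 0 members were higher, as with edgeR and DESeq2 at an adjusted p under 0.05. The median log2 fold change of the members was -1.70, against -0.06 for all genes tested, and 22 of the 35 lay among the lowest 5% of all genes tested. COX6A1 and ATP5ME passed the minimum only because of their input level; of the other 33 members, 32 were lower. For 34 of the 35 tested members the highest ADAR3 IP level was below the lowest input level, which held for 34.6% of all genes tested, and the opposite, seen for 29.3% of all genes, held for 0 members. Counted over all 39 listed members, ADAR3 IP lay below input without overlap for 37, the exceptions being SDHA and SDHC. The share over all genes without the minimum was not computed.

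**Figure D2:**
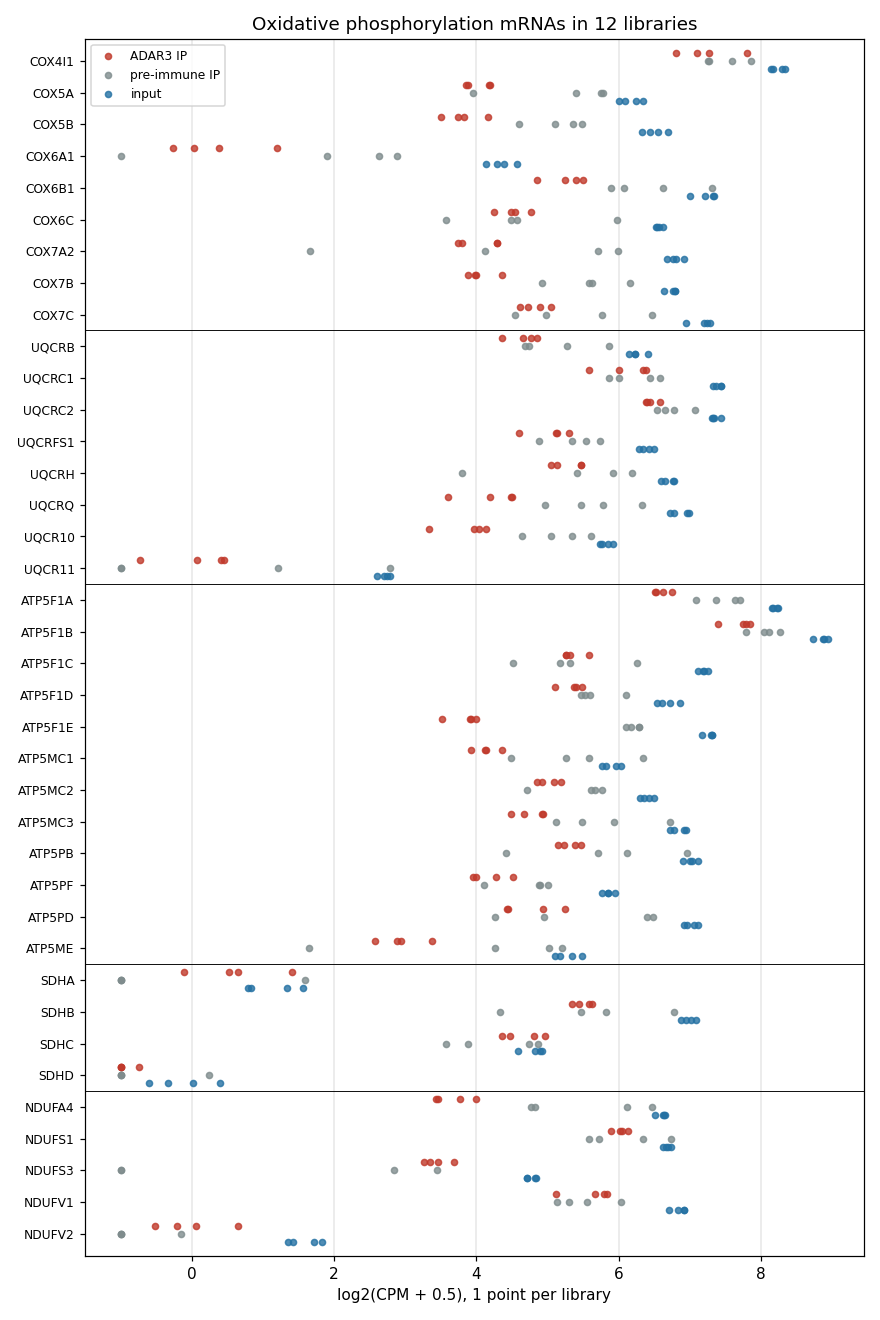
Levels of 38 listed members as log2(CPM + 0.5) (horizontal axis), 1 row per gene and 1 point per library, for ADAR3 IP (top of each row), pre-immune IP (middle) and input (bottom); lines separate the COX, UQCR, ATP5, SDH and NDUF genes. ADAR3 IP lies left of input without overlap in 36 rows, and pre-immune IP in 28, with a wider spread between its libraries. Over all genes tested, which excludes those under the minimum, this held for 34.6% and 17.9%.

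Members differed in how far they fell in ADAR3 IP. The largest log2 fold changes against input were -4.01 for COX6A1, -3.43 for ATP5F1E and -2.94 for NDUFA4, and the smallest among those called was -0.66 for NDUFS1. COX6A1 passed the minimum only because of its input level. Its fold change depends on the pseudocount and was smaller with a larger one, so its first place in this order is uncertain. By the first letters of the gene name, the median log2 fold change in ADAR3 IP over input was -2.35 for the 9 COX members tested, -1.73 for the 12 ATP5 members, -1.42 for the 7 UQCR members, -1.24 for the 5 NDUF members and -0.82 for the 2 SDH members. The NDUF median includes NDUFA4, and the 5 medians were not tested against each other.

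The spread between libraries differed between the groups. Over the 33 members tested in all 3 comparisons, the median log2 SD of a member across replicates was 0.21 for ADAR3 IP, 0.57 for pre-immune IP and 0.088 for input. Pre-immune IP also held fewer genes than input at a similar depth. Pre-immune replicate 1 had reads of 13822 genes among 4946149 reads, and input replicate 3 of 20830 genes among 4873428 reads. The cause was not tested.

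Members also share promoter elements, which the list did not use. The stretches shown are from genes described below, as examples of the short sequences that these genes hold in common before their start sites. RefSeq promoters (GRCh38.p14) were found for 34 of the 41 members, and both strands of the 250 bases before each start were searched. A gene counted as holding a motif if any of its listed starts did. The number of starts per gene was not equalised between members and other genes. The core TTCCGG, read by ETS-family factors such as GABPA (also called NRF-2), was present for 22 of the 34 members (64.7%), compared with 17.2% of the 27305 genes with a promoter entry and 23.0% of the protein-coding ones. The element GCATGCGC, part of the site of NRF-1, was present for 8 of the 34 (23.5%), compared with 3.22% of all and 4.34% of protein-coding genes. Neither motif contains the other, and 6 of the 34 members held both, COX5B and SDHB among them, compared with 0.802% of all genes with a promoter entry. A match is a description of these letters and says nothing of whether a factor binds. In the stretches below, each 30 bases long and written along the gene's own strand, capitals mark TTCCGG or its reverse complement in the first 6 and GCATGCGC in the last 2. They lie at chr16:85799550-85799579 (COX4I1, plus strand), chr2:97646013-97646042 (COX5B, plus), chrX:77899327-77899356 (COX7B, plus), chr18:46098326-46098355 (ATP5F1A, minus), chr1:17054143-17054172 (SDHB, minus) and chr2:206159583-206159612 (NDUFS1, minus), and for the last 2 at chr2:97645915-97645944 (COX5B) and chr1:17054214-17054243 (SDHB).
COX4I1: ctccaacgcctgCCGGAAagcagcccggcc
COX5B: agaagcccgcccCCGGAAgtccctcctgtc
COX7B: cattttataaagCCGGAAactacatttccc
ATP5F1A: gaggggcagtacTTCCGGgtcaggtgggcc
SDHB: ccacccgggaaaCCGGAAgccgcctcccac
NDUFS1: ggctggggccacTTCCGGcggaactgcggg
COX5B: ggcagagctggGCATGCGCaatttccgccc
SDHB: aagccaaatggGCATGCGCcgctactgcgc

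All 9 COX members listed were lower in ADAR3 IP than in input, as were 38.0% of all genes tested. Without COX6A1, which passed the minimum only because of its input level, 8 of 8 were lower. Each COX member encodes a nuclear subunit that surrounds the mitochondrially encoded catalytic core of complex IV. COX4I1 (ENSG00000131143), the largest of these subunits and a site of regulation by ATP, had 137, 111, 153 and 223 CPM in ADAR3 IP, 193, 152, 232 and 153 CPM in pre-immune IP and 286, 314, 281 and 322 CPM in input. Both IPs lay below input without overlap and overlapped each other. Its log2 fold change in ADAR3 IP over input was -0.99 ± 0.147 (standard error; adjusted p = 1.87e-05 by limma), the smallest of the 9. COX5B (ENSG00000135940), a zinc-binding subunit on the matrix side, had 13.7, 10.8, 12.9 and 17.4 CPM in ADAR3 IP, 44.3, 23.6, 33.9 and 40.5 CPM in pre-immune IP and 79.9, 93.6, 85.98 and 103 CPM in input. Its 3 groups were fully separated, and its log2 fold change over input was -2.70 ± 0.137 (standard error; adjusted p = 1.26e-10 by limma) in ADAR3 IP and -1.37 ± 0.247 (standard error; adjusted p = 0.00949 by limma) in pre-immune IP.

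COX6A1 and COX7B encode small membrane subunits of complex IV. COX6A1 had 0.518, 0.332, 0.808 and 1.79 CPM in ADAR3 IP, 6.87, 3.22, 5.69 and 0 CPM in pre-immune IP and 19.1, 16.99, 20.5 and 23.3 CPM in input. It passed the minimum of 10 CPM only because of its input level, so its p-value is given as a description. ADAR3 IP lay below input in every library, with a log2 fold change of -4.01 ± 0.283 (standard error; adjusted p = 4.62e-09 by limma), and 1 pre-immune library, the shallowest, held 0 reads. COX7B (ENSG00000131174) had 14.2, 15.3, 15.5 and 19.96 CPM in ADAR3 IP, 48.7, 29.7, 70.6 and 47.5 CPM in pre-immune IP and 99.3, 108, 109.8 and 110.3 CPM in input. Its 3 groups did not overlap, and its log2 fold change in ADAR3 IP over input was -2.69 ± 0.114 (standard error; adjusted p = 1.74e-11 by limma). COX6C and COX7C, which each encode a small single-span subunit, fell in both IPs, and their IPs overlapped. COX6C had 22.8, 18.6, 21.99 and 26.8 CPM in ADAR3 IP, 62.7, 11.4, 23.2 and 21.9 CPM in pre-immune IP and 93.8, 92.1, 98.1 and 91.9 CPM in input. COX7C had 32.6, 29.2, 26.03 and 23.8 CPM in ADAR3 IP, 22.8, 87.97, 53.97 and 30.9 CPM in pre-immune IP and 123, 150.5, 146 and 155 CPM in input. Against input, the log2 fold change of COX6C was -2.05 with ADAR3 IP and -1.91 with pre-immune IP, and that of COX7C -2.35 and -1.73 in the same order (limma adjusted p at most 0.0254). The other 3 COX members were COX5A, COX6B1 and COX7A2, with log2 fold changes in ADAR3 IP over input of -2.14, -1.97 and -2.76, all called lower.

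All 7 UQCR members tested were lower in ADAR3 IP than in input, beside 38.0% of all genes tested. These genes encode subunits of complex III, which passes electrons from ubiquinol to cytochrome c. UQCRC1 (ENSG00000010256), a core protein related to mitochondrial processing peptidases, had 47.3, 63.5, 83.3 and 80.2 CPM in ADAR3 IP, 86.5, 57.9, 95.2 and 63.5 CPM in pre-immune IP and 159, 173, 164 and 172 CPM in input. The IPs overlapped and both lay below input, with log2 fold changes of -1.31 ± 0.135 (standard error; adjusted p = 3.49e-07 by limma) in ADAR3 IP and -1.17 ± 0.187 (standard error; adjusted p = 0.00551 by limma) in pre-immune IP. UQCRFS1, the Rieske iron-sulfur protein, had 38.9, 34.3, 23.6 and 34.4 CPM in ADAR3 IP, 46.1, 28.97, 52.6 and 39.99 CPM in pre-immune IP and 77.1, 90.1, 80.8 and 84.97 CPM in input. Its log2 fold change over input was -1.35 with ADAR3 IP and -1.01 with pre-immune IP, again with IPs that overlapped. UQCRH, the hinge protein that binds cytochrome c1, had 32.5, 34.6, 43.6 and 43.7 CPM in ADAR3 IP, 71.98, 59.7, 13.4 and 42.1 CPM in pre-immune IP and 100.2, 108, 96.03 and 109 CPM in input. It was lower in ADAR3 IP, at -1.42 ± 0.107 (standard error; adjusted p = 1.04e-08 by limma), and in pre-immune IP the threshold was not passed (-1.37 ± 0.446, standard error; adjusted p = 0.0952 by limma). Of the others, UQCRQ had the largest log2 fold change in ADAR3 IP over input, at -2.67, and UQCRC2, the second core protein, the smallest, at -0.90.

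All 12 ATP5 members listed were lower in ADAR3 IP than in input, beside 38.0% of all genes tested. Without ATP5ME, which passed the minimum only because of its input level, 11 of 11 were lower. ATP5F1A and ATP5F1B encode the alpha and the catalytic beta subunit of the F1 head of ATP synthase. ATP5F1A (ENSG00000152234) had 107, 90.5, 97.6 and 91.8 CPM in ADAR3 IP, 135, 164, 197 and 207 CPM in pre-immune IP and 285, 298, 287 and 301 CPM in input. Its 3 groups were fully separated, and its log2 fold change over input was -1.60 ± 0.0728 (standard error; adjusted p = 3.75e-11 by limma) in ADAR3 IP and -0.75 ± 0.149 (standard error; adjusted p = 0.0149 by limma) in pre-immune IP. ATP5F1B had 228, 168, 214 and 221 CPM in ADAR3 IP, 219.6, 308, 275 and 263 CPM in pre-immune IP and 425, 471, 468 and 491 CPM in input. Its IPs overlapped, with 2 ADAR3 IP libraries above the lowest pre-immune library, and its log2 fold changes over input were -1.16 and -0.81 in ADAR3 IP and pre-immune IP.

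The central stalk that turns inside the F1 head held the ATP5 member with the largest difference and one whose IPs overlapped. ATP5F1E (ENSG00000124172), the small epsilon subunit of the stalk, had 10.98, 14.5, 15.4 and 14.7 CPM in ADAR3 IP, 67.9, 71.9, 77.4 and 77.3 CPM in pre-immune IP and 144, 158, 156 and 158 CPM in input. These groups were fully separated, with ADAR3 IP at a log2 fold change of -3.43 ± 0.112 (standard error; adjusted p = 1.38e-12 by limma) from input and pre-immune IP at -1.06 ± 0.14 (standard error; adjusted p = 0.00193 by limma). ATP5F1C, the gamma subunit of the same stalk, had 39.4, 37.9, 37.6 and 47.3 CPM in ADAR3 IP, 76.02, 39.3, 35.8 and 22.4 CPM in pre-immune IP and 144, 146, 137 and 152 CPM in input. Its log2 fold change over input was -1.83 ± 0.0905 (standard error; adjusted p = 8.98e-11 by limma) in ADAR3 IP and -1.87 ± 0.318 (standard error; adjusted p = 0.00733 by limma) in pre-immune IP.

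ATP5MC1, ATP5MC2 and ATP5MC3 encode the same mature subunit c of the membrane ring, behind different import sequences. ATP5MC1 had 17.05, 14.7, 16.8 and 20.1 CPM in ADAR3 IP, 37.6, 21.8, 80.8 and 47.5 CPM in pre-immune IP and 53.9, 64.6, 56.02 and 61.6 CPM in input. ATP5MC2 had 29.9, 33.7, 28.3 and 36.00 CPM in ADAR3 IP, 53.8, 48.3, 50.3 and 25.6 CPM in pre-immune IP and 78.1, 89.9, 85.4 and 81.7 CPM in input. ATP5MC3 had 21.99, 24.9, 29.8 and 30.1 CPM in ADAR3 IP, 44.3, 34.3, 105 and 60.8 CPM in pre-immune IP and 105, 119.9, 109 and 122 CPM in input. All 3 lay below input in every ADAR3 IP library, with log2 fold changes of -1.76, -1.38 and -2.08 (limma adjusted p at most 7.17e-09). None of the 3 passed the threshold in pre-immune IP over input (log2 fold changes of -0.48, -0.96 and -1.02, limma adjusted p of 0.441, 0.054 and 0.0751). The differences between the 3 genes were not tested.

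Of the SDH and NDUF members, those with enough reads were lower in ADAR3 IP than in input except SDHC. Complex II is built of SDHA and SDHB, which carry flavin and iron-sulfur clusters, and of the membrane anchors SDHC and SDHD. SDHB (ENSG00000117118) had 48.9, 40.1, 47.2 and 43.00 CPM in ADAR3 IP, 109, 19.7, 43.7 and 55.99 CPM in pre-immune IP and 116, 135, 123 and 129 CPM in input. It was lower in ADAR3 IP than in input (-1.48 ± 0.0899, standard error; adjusted p = 8.71e-10 by limma), with pre-immune levels spread across the ADAR3 IP levels. SDHC had 19.98, 30.6, 21.7 and 27.6 CPM in ADAR3 IP, 28.5, 14.3, 11.4 and 26.1 CPM in pre-immune IP and 27.8, 29.9, 23.4 and 29.3 CPM in input. Its groups overlapped, and its log2 fold change in ADAR3 IP over input was -0.15 ± 0.147 (standard error; adjusted p = 0.357 by limma), with a 95% interval of -0.47 to 0.16.

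Among the NDUF genes, NDUFA4, once assigned to complex I and now placed with complex IV, had a larger fold change than NDUFS1 and NDUFV1, core subunits of complex I. NDUFA4 (ENSG00000189043) had 13.2, 10.3, 10.5 and 15.4 CPM in ADAR3 IP, 87.7, 68.7, 26.6 and 27.7 CPM in pre-immune IP and 90.1, 98.2, 98.7 and 99.7 CPM in input, and the groups did not overlap. Its log2 fold change in ADAR3 IP over input was -2.94 ± 0.129 (standard error; adjusted p = 2.81e-11 by limma). NDUFS1 (ENSG00000023228), the largest iron-sulfur subunit of complex I, had 58.9, 65.2, 64.1 and 69.5 CPM in ADAR3 IP, 106, 80.8, 52.4 and 47.5 CPM in pre-immune IP and 106, 103, 101 and 98.2 CPM in input, with a log2 fold change of -0.66 ± 0.081 (standard error; adjusted p = 2.43e-06 by limma). NDUFV1, which binds NADH and flavin, had 55.02, 34.4, 50.03 and 56.7 CPM in ADAR3 IP, 38.8, 34.7, 64.9 and 46.4 CPM in pre-immune IP and 104, 120.3, 119.8 and 114 CPM in input. Both IPs of NDUFV1 lay below input, with log2 fold changes of -1.24 ± 0.13 (standard error; adjusted p = 4.19e-07 by limma) in ADAR3 IP and -1.34 ± 0.224 (standard error; adjusted p = 0.00656 by limma) in pre-immune IP. The 95% intervals of NDUFA4 (-3.21 to -2.66) and of NDUFS1 (-0.83 to -0.49) and NDUFV1 (-1.51 to -0.96) were apart, and the differences themselves were not tested.

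The main test left out 4 members with few assigned reads in all 3 comparisons. Input means were 6.03 CPM for UQCR11, a small subunit of complex III, 2.51 CPM for NDUFV2, an iron-sulfur subunit of complex I, 1.75 CPM for SDHA and 0.447 CPM for SDHD, all under the minimum. The highest ADAR3 IP level was below the lowest input level for UQCR11, NDUFV2 and SDHD, but not for SDHA. The share of all genes under the minimum for which this held was not computed, so nothing is drawn from it. SDHA had 0.932, 0.431, 1.06 and 2.17 CPM in ADAR3 IP, 0, 2.50, 0 and 0 CPM in pre-immune IP and 2.04, 1.28, 2.46 and 1.24 CPM in input, and these groups overlapped. SDHD had 0, 0.0995, 0 and 0 CPM in ADAR3 IP, 0, 0, 0.683 and 0 CPM in pre-immune IP and 0.157, 0.296, 0.821 and 0.515 CPM in input, where the lowest input library held 2 reads. RefSeq names 4 pseudogenes of SDHA and 7 of SDHD, and their part in these low levels was not tested.

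Pre-immune IP also held less of these mRNAs than input. Of the 35 members tested, 17 were lower than input and 0 higher, compared with 5.91% of all 9772 genes tested called lower, 1.57% higher and 7.48% in either direction (limma). By name, these were 5 of 9 COX, 5 of 7 UQCR, 6 of 12 ATP5, 0 of 2 SDH and 1 of 5 NDUF members. At an unadjusted p under 0.05, 31 members were lower and 0 higher, where 18.2% of all genes were lower. At an adjusted p under 0.05, edgeR called 12 members lower and 0 higher (4.98% of all its genes lower), and DESeq2 18 and 0 (6.45%). The median log2 fold change was -1.13 for the members and -0.32 for all genes tested. The highest pre-immune level was below the lowest input level for 28 of the 35, as for 17.9% of all genes tested, and the opposite, seen for 6.37% of all genes, held for 0 members. The 3 called members with the largest differences were COX6C, ATP5F1C and COX7C. COX6A1 and NDUFS3, a core subunit of complex I, passed the minimum only because of their input level, and neither was called; of the other 33 members, 17 were lower. NDUFS3 had 6.67, 10.4, 0 and 0 CPM in pre-immune IP and 25.7, 27.96, 27.9 and 25.7 CPM in input, and with 2 libraries at 0 its fitted fold change depends on the pseudocount. The count of 17 fell to 8, 5, 6 and 5 without input replicate 1, 2, 3 or 4, while leaving out 1 pre-immune library gave 19 to 21.

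**Figure D3:**
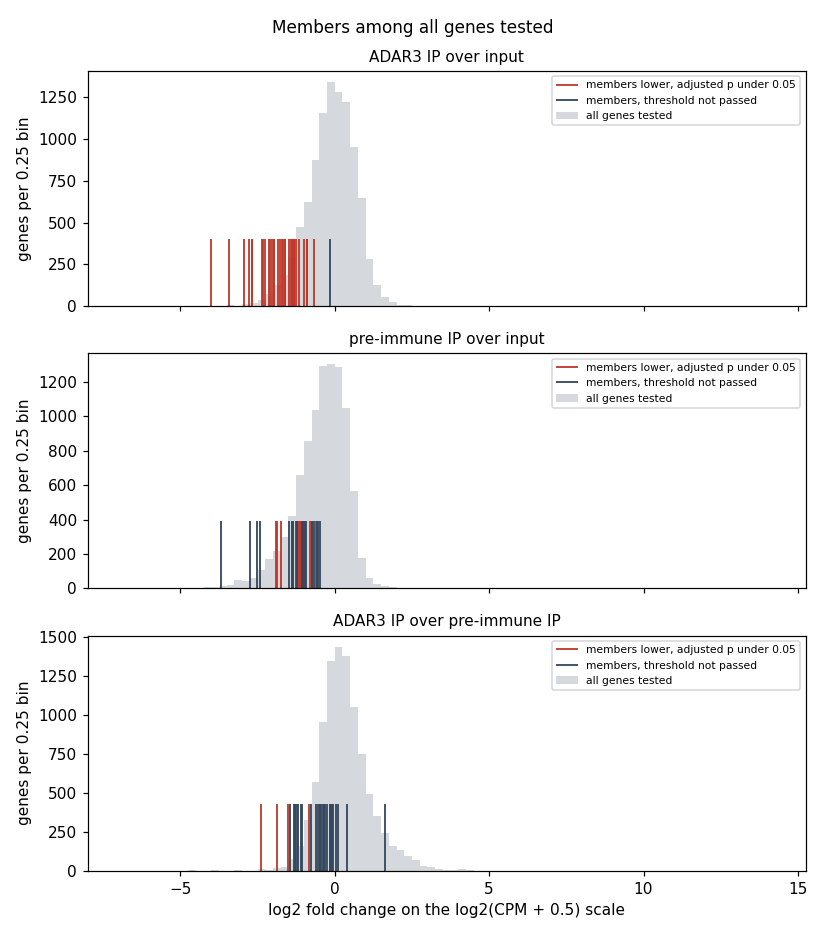
Distribution of log2 fold changes of all genes tested (grey bars, genes per bin of 0.25) with each tested member as a vertical line, for ADAR3 IP over input (35 members), pre-immune IP over input (35) and ADAR3 IP over pre-immune IP (33). Red lines are members called lower (34, 17 and 4), dark lines members that did not pass the threshold, and no member was called higher.

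The last comparison sets ADAR3 IP against pre-immune IP directly. Besides the 4 members left out of all 3 comparisons, COX6A1 and NDUFS3 were under the minimum here and not tested. Among these untested members, mean CPM was higher in ADAR3 IP for NDUFS3, NDUFV2 and SDHA and lower for COX6A1, UQCR11 and SDHD. Each had 0 reads in at least 1 pre-immune library. Of the 33 members tested, 4 were lower in ADAR3 IP and 0 higher, compared with 1.63% of all 9781 genes tested called lower, 3.67% higher and 5.30% in either direction (limma). At an unadjusted p under 0.05, 12 members were lower and 0 higher, where 6.40% of all genes were lower. At an adjusted p under 0.05, edgeR called 6 members lower and 0 higher, where 1.69% of all its genes were lower. In the authors' deposited table, 12 of the 38 members with an adjusted p were lower at under 0.05 and 0 higher, where 5.63% of all genes with one were lower. The median log2 fold change of the members was -0.48, against 0.24 for all genes tested, and 31 of the 33 lay below that median of all genes. ATP5ME, counted in these values, passed the minimum only because of its pre-immune level and was not called. Of the other 32 members, 4 were lower. Every ADAR3 IP library lay below every pre-immune library for 10 members, which held for 5.78% of all genes tested, and the opposite, seen for 11.4% of all genes, held for 0 members.

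The 4 members lower in ADAR3 IP than in pre-immune IP were ATP5F1E, NDUFA4, COX7B and ATP5F1A. The log2 fold change was -2.37 ± 0.304 (standard error; adjusted p = 0.00114 by limma) for ATP5F1E and -1.87 ± 0.485 (standard error; adjusted p = 0.0479 by limma) for NDUFA4. For COX7B it was -1.52 ± 0.377 (standard error; adjusted p = 0.0414 by limma), and for ATP5F1A -0.84 ± 0.181 (standard error; adjusted p = 0.0226 by limma). In all 4 the ADAR3 IP libraries lay below every pre-immune library. ATP5F1E stayed under the threshold in all 19 alternatives that tested it, ATP5F1A in 14 of 20, COX7B in 11 of 19 and NDUFA4 in 7 of 19. With any 1 ADAR3 IP library left out, ATP5F1E alone was called, and without pre-immune replicate 1 ATP5F1E and ATP5F1A were.

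Another 8 members had intervals entirely below 0 but missed the threshold after adjustment. They were UQCRQ, COX5B, UQCR10, ATP5MC1, COX6B1, COX5A, ATP5MC3 and ATP5F1B, and in the authors' deposited table each of these had an adjusted p under 0.05. Their log2 fold changes ranged from -1.44 for UQCRQ to -0.36 for ATP5F1B, with limma adjusted p of 0.0545 to 0.239. UQCRQ and UQCR10, small subunits of complex III, had 22.1, 11.7, 21.9 and 17.7 CPM and 15.1, 9.62, 15.9 and 17.00 CPM in ADAR3 IP, and 54.2, 79.4, 30.7 and 43.7 CPM and 40.03, 24.3, 48.3 and 32.5 CPM in pre-immune IP.

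For several other members the difference between the IPs was not called, and its interval was wide. The 95% interval of the log2 fold change in ADAR3 IP over pre-immune IP was -0.73 to 0.43 for UQCRC1, -0.69 to 0.53 for NDUFS1 and -0.56 to 0.76 for NDUFV1. For COX4I1 it was -0.75 to 0.25, and for ATP5F1C -0.77 to 0.85. A p that misses the threshold does not show equal levels.

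**Figure D4:**
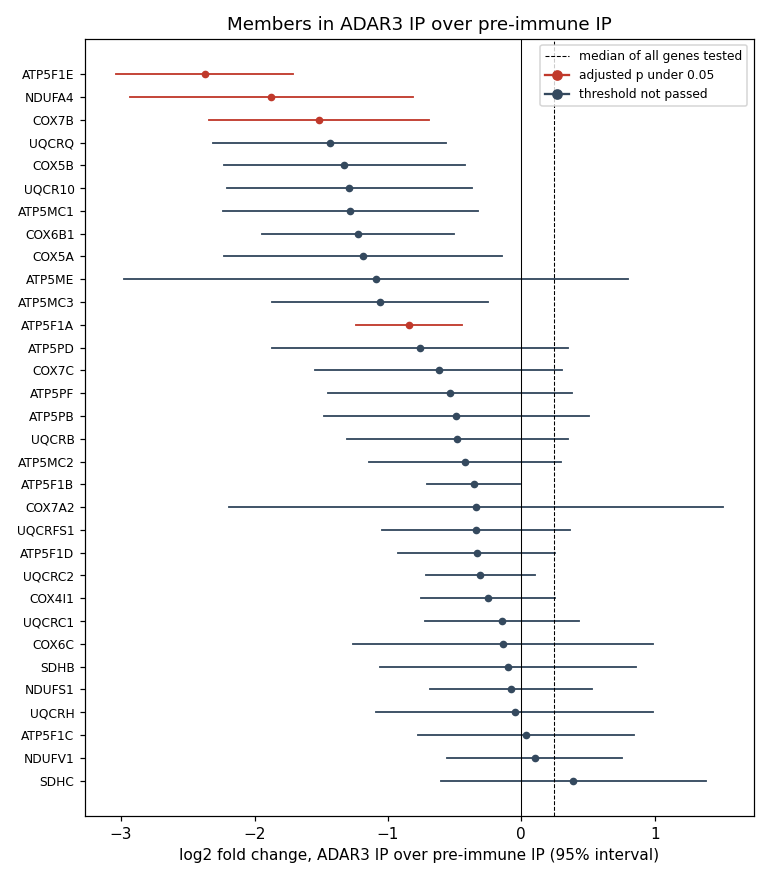
Log2 fold change in ADAR3 IP over pre-immune IP (horizontal axis) of 32 members tested, with 95% intervals from limma; red marks the 4 members called lower, the solid line is 0 and the dashed line the median of all genes tested (0.24). 31 of these 32 members lie left of the dashed line, with ATP5F1E lowest and SDHC highest.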

How the data were processed

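RNA immunoprecipitation sequencing covered 12 libraries in 3 groups of 4, grouped by title. Depletion of ribosomal RNA, a strand-specific kit and 15 amplification cycles are recorded per the labels' protocols; the molecule label reads polyA RNA. STAR 2.7.7a, featureCounts, DESeq2 and GRCh38 stand in the submitters' processing notes; which annotation and strand setting applied is not given in the sources used here. Values of overlapping genes and of members with pseudogenes are therefore uncertain.

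The authors deposited each gene's read count after division by the library's size factor (a normalized signal), in 1 table for the IPs (28556 genes) and 1 for input (28061 genes), normalized separately. All values (100%) were whole multiples of 1 read within 0.001 reads, so reads were recovered and CPM computed over each table's total, which undoes that separate scaling. Log2 fold changes and adjusted p-values of the IP table are the authors' deposited ones. Intervals rest on the spread between libraries.

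Fits used limma 3.58.1 (R 4.3.3, variance trend) on log2(CPM + 0.5), with a mean of at least 10 CPM, for each pair of groups, on genes listed in both tables where input was compared (24910). The fit was tested on simulated data. Alternatives were other pseudocounts, minimums, scalings and variance models, edgeR 4.0.16 and DESeq2 1.42.0 on recovered reads, a replicate block and leaving out libraries. The planned relation with protein length, cell markers and other genes of the pathway were not analysed here, since the tables pair no IDs with symbols and no protein sequences were used. Members and lists were chosen with earlier results of these data known. Values per library are given for 18 members with roles fixed in the plan and, in each comparison, for the 3 called members with the largest changes; members outside this rule were named after their values were seen. The values of 1 member, which is included in the counts, are not reported here.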

Additional observations from a re-analysis of the deposited data

Results flagged for a closer look

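Of 84 sets of 4 values examined, 6 had 1 library far from the other 3 by Dixon's test at the 95% level, where chance marks about 1 set in 20. The sets were summed shares and levels of the members under the rule for values per library. SDHC, UQCRQ, UQCR10 and NDUFS3, outside that rule, were not examined. Input replicate 1 was low for COX7B, at 99.3 CPM against 108 to 110.3 CPM in the others, for ATP5F1E, at 144 CPM against 156 to 158 CPM, and for NDUFA4, at 90.1 CPM against 98.2 to 99.7 CPM. The other 3 sets were near 0: SDHA had reads in pre-immune replicate 2 alone, at 2.50 CPM, and SDHD in pre-immune replicate 3 alone, at 0.683 CPM, and in ADAR3 IP replicate 2 alone, at 0.0995 CPM.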

How the results depend on the processing

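The count of 34 members lower in ADAR3 IP than in input kept its direction and size under every alternative run. It ranged from 27 with a minimum of 50 CPM, where 27 were tested, to 37 with no filter or DESeq2. With 1 library left out it was 33 to 34. None of the 20 tested members under the rule for values per library lost its call there or changed sign. The median log2 fold change was -1.76 to -1.65 with 1 library left out. No member was called higher in any comparison or setting.

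In ADAR3 IP over pre-immune IP, the count of 4 lower members became 12 with DESeq2, 2 with a minimum of 50 CPM and 1 with group variance weights. It ranged from 1 to 6 with 1 library left out. DESeq2 on recovered reads returned the authors' deposited values, so its 12 members are not a result separate from theirs. The members' median of -0.48 became -0.64 with DESeq2 and -0.31 with a minimum of 50 CPM, and ranged from -0.67 (without pre-immune replicate 4) to -0.43. Some members near 0 and not called changed sign: UQCRH stood at 0.011 with TMM factors, and ATP5F1C at -0.0450 with median-ratio factors, -0.10 with edgeR and -0.19 with DESeq2. With 1 library left out, ATP5F1C ranged from -0.23 to 0.35, UQCRH from -0.56 to 0.23, COX6C from -0.50 to 0.30, SDHB from -0.52 to 0.29, NDUFS1 from -0.25 to 0.13, NDUFV1 from -0.023 to 0.28 and UQCRC1 from -0.27 to 0.018.

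In pre-immune IP over input, the count of 17 lower members became 11 with group variance weights and 9 without a variance trend, and ranged from 5 to 21 with 1 library left out (median -1.16 to -1.05). Over all genes, calls in either direction numbered 6995 in ADAR3 IP over input (3634 with a minimum of 50 CPM), 518 in ADAR3 IP over pre-immune IP (234 without a variance trend to 2581 with DESeq2; 210 to 916 with 1 library left out) and 731 in pre-immune IP over input (363 with group variance weights to 4310 with no filter; 248 to 1380). Median-ratio scaling moved the share of higher calls to 56.5%, against 69.3%, in ADAR3 IP over pre-immune IP and to 43.2%, against 20.9%, in pre-immune IP over input, where the median of all genes moved by 0.14. Relative to all genes, the members' medians were then -0.72 and -0.80, against -0.72 and -0.81. The causes were not tested.

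Without the 10 most abundant genes in the total, the members' share became 0.159% for ADAR3 IP, 0.269% for pre-immune IP and 0.465% for input; with 1 library left out it ranged from 0.135% to 0.147%, 0.210% to 0.221% and 0.414% to 0.429%. With the replicate number as a block, 3 members were lower in ADAR3 IP than in pre-immune IP (ATP5F1A, ATP5F1E and COX6B1, while COX7B, at a limma adjusted p of 0.0915, and NDUFA4, at 0.0675, were no longer called), 34 lower in ADAR3 IP than in input and 18 lower in pre-immune IP than in input. Libraries with the same number deviated from their group means with correlations of -0.12 to 0.37, and were not treated as pairs. The shallowest pre-immune library, with 1875461 reads, held 0 reads of several members, COX6A1 and NDUFS3 among them. NDUFS3 also had 0 reads in pre-immune replicate 3, which held 4391041 reads.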
